A study of Mus musculus with 12 samples.

Results

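Control tumors grown from the mouse 4T1 mammary carcinoma line were compared with control cultures of the same line, 3 libraries against 3, out of 12 bulk RNA-seq libraries in a study of the chromatin protein POGZ. The 6 libraries were chosen by their labels alone: their titles carry the letters VC, which the labels do not spell out, and their genotype is given as POGZ WT. The other 6 libraries, tumors and cultures labelled POGZ KO, enter only the test of whether the difference depends on the genotype label. Culture plates, kept in DMEM plus 10% FBS, went into lysis once 75% confluent. Each tumor grew for 28 days from 50000 cells injected into a mammary fat pad, in BALB/c hosts 8 weeks old, and was flash frozen after removal. The tumors, titled POGZ_VC_8447, POGZ_VC_8448 and POGZ_VC_8451, are written T8447, T8448 and T8451, the cultures are 1, 2 and 3, and values below are always listed in that order. No label says that the cultures were separate clones or passages, so the p-values measure the spread among these libraries, which for the cultures may be technical.

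The 4T1 line is epithelial in origin, lacks the receptors used to define hormone-driven breast cancer, and spreads from the mammary fat pad to lung and other organs. BALB/c is the strain it came from, so a graft meets an intact immune system and draws in macrophages, granulocytes, fibroblasts and vessels. A culture holds tumor cells in abundant serum, oxygen and amino acids, whereas a tumor is a tissue of tumor and host cells supplied by its own vessels. In such bulk RNA a change in the number of cells of a type and a change in RNA per cell cannot be told apart. Growth in a host and freezing of the tissue also cannot be told apart, and the tumor and culture counts came in separate tables.

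Control culture libraries held 17714560 to 18643217 counts and control tumor libraries 4712001 to 8338828, so tumor values carry more counting error. Correlations of log2(CPM + 1) across genes were 0.996 to 0.998 among cultures, 0.962 to 0.976 among tumors and 0.817 to 0.833 between a tumor and a culture, as a description in which genes are not replicates. CPM is a gene's count per 1000000 counts of its library. Ribosomal RNA-like loci took 3.60% to 4.31% of culture counts, 1.12% and 1.24% in T8447 and T8448 and 3.97% in T8451. Malat1, a long RNA kept in the nucleus, took 0.639% to 0.816% of culture counts and 2.04% to 2.39% of tumor counts. The strand setting of the counting is not given, so reads are uncertain in origin for genes that overlap others, among those below Mt2 (73.5% of its exon length), Tagln (67.9%), Hist1h4b (56.2%), Mb (31.9%), Ctsl (26.8%) and Bcl2l15 (21.0%). Pogz (ENSMUSG00000038902, chr3:94837567-94882326 in mm10) was intact in both groups by its label and stood at 50.9, 52.0 and 48.1 CPM in the cultures and 86.0, 103 and 109 CPM in the tumors. Its log2 fold change of tumors over cultures was 0.99 ± 0.12 (SE; adjusted p = 1.92e-04). Pogz was not lower in the libraries labelled KO: the cultures labelled KO held 67.8 to 68.6 CPM and the tumors labelled KO 84.5 to 131 CPM, so its RNA level showed no loss under that label, and its protein was not measured here.

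Of 17123 genes tested, 6117 were higher in tumors (35.7%) and 5055 were lower (29.5%) at an adjusted p under 0.05 in edgeR's quasi-likelihood test, with a median log2 fold change of 0.07 over all of them. These shares are the background for every count of a gene group below. The rises were the larger changes: 2473 genes were called over 4-fold higher and 519 over 4-fold lower, and 1462 against 60 passed 16-fold. Among the higher genes, 492 had no count in any control culture, while 12 of the lower genes had none in any control tumor. Such genes passed the filter for expressed genes through the other group alone, so their direction was fixed beforehand. The same holds for members of the lists below that had no culture count. It also holds for members with too few culture counts to pass that filter, such as Ctss and H2-Aa with 2 each. The split depended on the zero point. Set to the median of the epithelial genes described below, 8413 genes were higher and 3067 lower (73.3% of calls higher, against 54.8%), which moves the median of all genes from 0.07 to 0.43. Against a 2-fold null, 3074 were higher and 1251 lower (71.1% higher).

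Among protein-coding genes called over 4-fold higher, the 12 with the highest tumor level per kilobase of exon were B2m, Fn1, Clu, Cd74, Spp1, H2-D1, Tmsb4x, Apoe, Ctss, Lyz2, H2-K1 and S100a9. B2m, the light chain of MHC class I, reached 1622 CPM per kb in tumors and stood at 276, 247 and 231 CPM in cultures and 1773, 1055 and 1357 CPM in tumors (log2 fold change 2.47 ± 0.19; adjusted p = 2.19e-05). Fn1, the fibronectin gene, was at 785, 799 and 733 CPM in cultures and 9686, 4890 and 8839 CPM in tumors (3.34 ± 0.27; adjusted p = 2.49e-05). Clu, which encodes the chaperone clusterin, went from 247, 229 and 221 to 1840, 3530 and 1499 CPM, highest in T8448. Spp1, the gene of the secreted phosphoprotein osteopontin, was at 98.7, 99.0 and 96.6 CPM in cultures and 1262, 883 and 983 CPM in tumors. The choice also required that every tumor exceed every culture, so this holds for these 12 genes by selection. The 12 thus held fibronectin, antigen presentation genes and myeloid genes side by side. The largest rises among genes whose mean log2 CPM was 3 or more included Igfbp3, an IGF-binding protein, with no culture count and 403, 235 and 195 CPM in tumors, at least 1693-fold higher against a floor of 3 counts per library. Plek, a phosphoprotein of platelets and leukocytes, had none and 114, 102 and 143 CPM, at least 726-fold higher.

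The 12 genes with the highest culture level per kilobase among those called over 4-fold lower were Cxcl5, Ptgs2, Mt2, Slc25a5, Bex3 and 7 histone genes. Cxcl5, a chemokine that attracts neutrophils, stood at 600, 656 and 773 CPM in cultures and 2.55, 16.7 and 14.1 CPM in tumors (log2 fold change -5.85 ± 0.48; adjusted p = 2.95e-05). Slc25a5, the mitochondrial ADP/ATP carrier, was at 260, 262 and 276 CPM in cultures and 67.9, 62.2 and 50.5 CPM in tumors (-2.15 ± 0.12). Bex3 went from 163, 145 and 141 to 30.6, 28.1 and 21.5 CPM. The largest falls among genes whose mean log2 CPM was 3 or more included Sema3c, a secreted guidance cue, at 122, 125 and 123 CPM in cultures and 3.18, 0.240 and 0.664 CPM in tumors. Adh7, an alcohol and retinol dehydrogenase, was at 39.4, 42.6 and 39.6 CPM in cultures and at 0, 0.120 and 0.531 CPM in tumors. Foxn1, a transcription factor of skin and thymic epithelium, was at 20.4, 21.8 and 19.6 against 0.212, 0.839 and 0.133 CPM. Alpl, an alkaline phosphatase, was at 16.1, 14.1 and 12.4 against 0.424, 1.08 and 0.664 CPM. Fyb2 and Bcl2l15 fell too, with log2 fold changes of -4.40 and -4.34. The 12 genes ranked per kilobase were chosen so that the groups did not overlap. Sema3c, Adh7, Foxn1, Alpl, Fyb2 and Bcl2l15 were ranked by fold change without that requirement, and their groups did not overlap either.

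Markers of macrophages and monocytes, cells of the host, rose. All 24 macrophage and monocyte markers were measured, and 23 rose, with a median log2 fold change of 10.16. That median was 8.11 with the 5 genes without a culture count, tested through their tumor counts alone, held at their lower bound. Their summed level was 62.1 to 65.3 CPM in cultures and 4506, 2299 and 3127 CPM in tumors, 52.0-fold higher on average. With 3 against 3 libraries the smallest two-sided exact permutation p is 0.1, which this sum reached. Csf1r, the receptor for macrophage growth factor, was present in cultures at 21.8, 23.2 and 26.9 CPM and rose to 181, 93.4 and 187 CPM. Msr1, a scavenger receptor, had no count in cultures and 150, 105 and 169 CPM in tumors, at least 862-fold higher. Ctss, a lysosomal protease of antigen-presenting cells, had 2 counts over all 3 cultures and 760, 342 and 546 CPM in tumors (adjusted p = 1.55e-06). Lyz2, myeloid lysozyme, had 1 culture count and 564, 153 and 310 CPM in tumors. C1qc, a chain of complement C1q, had 1 culture count and 163, 52.3 and 112 CPM in tumors. For such genes with 1 to 3 culture counts no fold is given. T8447 was the highest and T8448 the lowest of the 3 for Ctss, Lyz2 and C1qc, as for the macrophage sum.

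**Figure D1:**
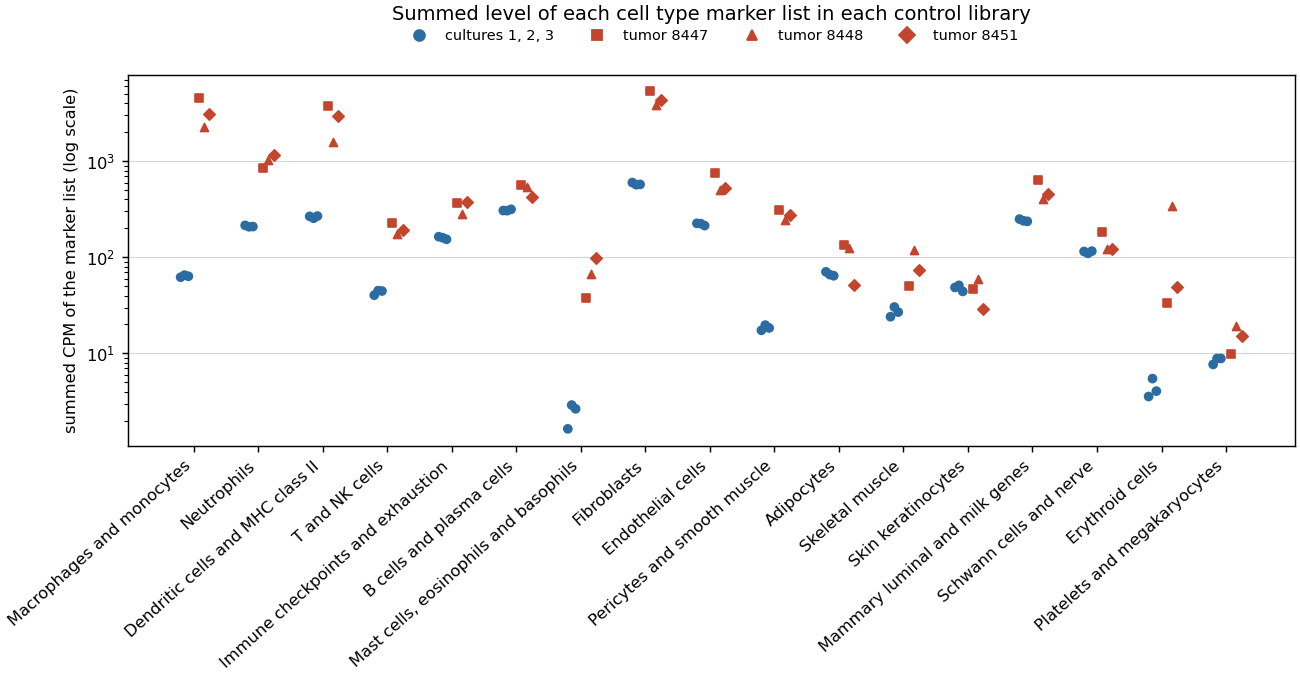
Each column is a cell type marker list and each mark the summed CPM of its genes in 1 control library, on a log axis; round marks are cultures 1, 2 and 3 and the other shapes are the tumors. Macrophage markers sit at 62.1 to 65.3 CPM in cultures and 2299 to 4506 CPM in tumors, while keratinocyte and adipocyte sums overlap between the groups.

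Granulocyte markers were also higher, with another order among tumors. All 16 neutrophil markers tested, of 22 listed, rose, and their sum went from 208 to 215 CPM in cultures to 857, 1031 and 1150 CPM. Of these 16, 4 had no culture count and were tested through their tumor counts alone, as were S100a9, Csf3r and Ccr1 with 1 or 2. S100a9, a subunit of calprotectin, was at 24.4, 211 and 163 CPM in tumors and had 2 counts in all cultures; its partner S100a8 was at 11.0, 118 and 107 CPM. Both were lowest in T8447, the tumor with the highest macrophage sum. Csf3r, the receptor for granulocyte colony-stimulating factor, was at 21.9, 55.4 and 63.8 CPM in tumors with 1 culture count. Il1r2, a decoy interleukin-1 receptor of neutrophils, had no culture count and 6.15, 22.2 and 18.9 CPM in tumors, at least 95.9-fold higher. Ccr1, a chemokine receptor of myeloid cells, was at 79.6, 74.1 and 100 CPM. All 6 tested markers of mast cells, eosinophils and basophils, of 15 listed, rose as well. Of these 6, 4 had no culture count and were tested through their tumor counts alone, as was Hdc. The stem cell factor receptor Kit had no culture count and 16.1, 21.7 and 11.7 CPM in tumors, at least 101-fold higher. The histamine-forming enzyme Hdc had 9 culture counts and 5.31, 25.7 and 39.6 CPM.

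Genes of MHC class II, which present antigen to helper T cells, were near 0 in cultures and higher in every tumor. H2-Aa had 2 culture counts and 705, 333 and 572 CPM in tumors (adjusted p = 9.36e-07). H2-Eb1 and H2-Ab1 had 3 and 5 culture counts and reached 467, 200 and 377 CPM and 494, 149 and 337 CPM. H2-DMb1, which helps load peptide, had no culture count and 117, 59.0 and 86.9 CPM, at least 534-fold higher. Cd74, the invariant chain, went from 0.508, 0.590 and 0.378 to 1524, 545 and 1173 CPM (log2 fold change 11.07 ± 0.53; adjusted p = 2.40e-06). For all 5 genes T8448 was the lowest of the 3. Of 14 dendritic cell and class II genes tested 12 rose; Fscn1, an actin-bundling protein that 4T1 cultures also expressed, fell from 243, 231 and 246 to 147, 126 and 106 CPM.

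Most lymphocyte markers rose. Of 20 T and NK cell genes tested, 17 rose and 1 fell, and the sum went from 40.4 to 45.0 CPM in cultures to 229, 176 and 194 CPM in tumors. Of the 20, 10 had no culture count and were tested through their tumor counts alone, as was Il2rb. Cd3g, part of the T cell receptor complex, had no culture count and 11.0, 3.96 and 5.45 CPM in tumors, at least 41.5-fold higher. Gzmb, a cytotoxic granule protease, had none in cultures and 17.2, 16.8 and 16.3 CPM, at least 102-fold higher and even across tumors. Thy1, which fibroblasts carry as well as T cells, was at 52.0, 41.9 and 44.9 CPM with no culture count. Il2rb had 4 culture counts and 19.9, 27.2 and 16.1 CPM. Foxp3, the regulatory T cell factor, was counted at 13.7, 16.2 and 14.1 CPM in cultures and 7.64, 9.95 and 7.17 CPM in tumors; 31.5% of its exon length overlaps another gene, so its reads are uncertain in origin. In the B cell and plasma cell list, 8 of 9 tested genes rose and 1 fell, and the sum went from 306 to 316 CPM in cultures to 567, 538 and 426 CPM in tumors. Most of that sum was Sdc1 and Xbp1, which the cultures also expressed. The immunoglobulin heavy chain gene Ighm had no culture count and 11.0, 4.80 and 2.79 CPM in tumors, and Igkc was at 13.6, 1.20 and 2.66 CPM, with T8447 the highest for both, and Igkc was not called in the fit of all 12 libraries (adjusted p = 0.177). Blnk, an adaptor of B cell receptor signalling, was present in cultures at 23.9, 24.1 and 23.4 CPM and fell to 7.43, 1.32 and 5.45 CPM.

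Immune checkpoint genes followed, with 12 of 14 higher and 2 lower, and 3 of the 14 had no culture count. Cd274, which encodes PD-L1, rose from 4.74, 5.63 and 5.02 to 86.6, 90.5 and 125 CPM (log2 fold change 4.30 ± 0.19; adjusted p = 1.85e-06). Pdcd1lg2, its paralogue PD-L2, had 1 culture count and 14.4, 4.56 and 17.5 CPM in tumors. Vsir, the gene of VISTA, rose evenly, from 1.24, 1.07 and 1.19 to 65.4, 62.0 and 62.6 CPM (5.75 ± 0.13). Ido1, the tryptophan-degrading enzyme, and the costimulatory ligand Cd86 had 1 culture count each and reached 24.0, 6.60 and 16.1 CPM and 19.7, 7.32 and 21.1 CPM. Tigit and Cd276 went the other way: Tigit fell from 22.2, 24.1 and 24.8 to 6.58, 3.48 and 5.05 CPM, and Cd276, or B7-H3, from 131, 124 and 118 to 87.4, 76.0 and 72.5 CPM. The sum of the list was 154 to 164 CPM in cultures and 365, 283 and 378 CPM in tumors.

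Stromal and vascular markers rose as a block. Of 22 fibroblast genes tested 20 rose, and their sum went from 570 to 600 CPM in cultures to 5326, 3852 and 4389 CPM in tumors. Among the 22, 5 had no culture count and were tested through their tumor counts alone. Dcn, the matrix proteoglycan decorin, had no culture count and 28.0, 31.8 and 36.5 CPM in tumors, at least 196-fold higher. All 13 pericyte and smooth muscle genes tested rose (sum 17.4 to 19.7 against 310, 242 and 278 CPM), 2 of them without a culture count. Acta2, smooth muscle actin, went from 0.508, 1.34 and 1.08 to 41.8, 52.4 and 57.9 CPM, and Rgs5, a pericyte signalling regulator, had 4 culture counts and 83.4, 18.0 and 40.0 CPM. Among 22 endothelial genes 20 rose and 2 fell, and 6 of the 22 had no culture count. Pecam1 was at 0.226, 0.644 and 0.378 CPM in cultures and 87.4, 51.9 and 61.5 CPM in tumors. Kdr, the main VEGF receptor, had 1 culture count and 34.8, 17.0 and 18.9 CPM. Emcn had none and 23.1, 13.7 and 10.6 CPM, at least 96.3-fold higher. Apln, a vascular peptide that the cultures expressed, fell from 76.7, 77.5 and 75.0 to 17.2, 31.4 and 26.0 CPM.

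Markers of blood, muscle, fat, skin, nerve and mammary tissue gave uneven values, several of which moved with single tumors. The source of these values was not tested. Counts for keratinocyte, nerve, mammary and platelet genes are small and stand against 35.7% higher and 29.5% lower over all genes. Globins were highest in T8448: Hbb-bs was at 13.8, 147 and 19.9 CPM and Hba-a1 at 11.2, 149 and 15.7 CPM, with no culture count for either, and both have near-identical copies. Of 10 muscle genes tested 6 rose; Mb, myoglobin, was at 2.76, 6.24 and 7.57 CPM and the muscle sum at 50.3, 119 and 73.9 CPM against 24.1 to 30.4 CPM in cultures. Fat cell markers were lowest in T8451. Fabp4, a fatty acid carrier, was at 28.4, 23.9 and 4.52 CPM, and the adipocyte sum of 134, 126 and 51.8 CPM overlapped the culture range of 64.3 to 70.6 CPM (exact permutation p = 0.4). Keratinocyte genes split, with Krt14 higher (13.2, 15.2 and 13.0 against 34.2, 40.2 and 16.2 CPM; adjusted p = 0.0739 in the fit of all 12 libraries) and Sbsn lower, and their sums overlapped (exact permutation p = 0.8). Of 8 nerve and Schwann cell genes 3 rose. Of 7 mammary luminal and milk genes 2 rose and 3 fell; their median was -0.42, yet their sum was 2.06-fold higher through Xdh, xanthine dehydrogenase, which rose from 14.3, 12.3 and 13.0 to 336, 200 and 202 CPM. Of 4 platelet genes tested 1 rose and 1 fell. The part of these tissues in other results was not tested.

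Epithelial genes of the 4T1 line fell or were not called, with 2 exceptions. Krt18, a simple epithelial keratin, was at 653, 604 and 582 CPM in cultures and 510, 486 and 561 CPM in tumors and was not called (log2 fold change -0.24 ± 0.11; adjusted p = 0.0863), though without T8451 it passed the test (-0.34; adjusted p = 0.0224). Krt8, its partner, fell by 0.70 ± 0.09 on the log2 scale, and Krt7, of the same keratin class, fell from 676, 653 and 625 to 239, 275 and 147 CPM. Cdh1, E-cadherin, fell from 1232, 1136 and 1072 to 437, 500 and 382 CPM (-1.38 ± 0.13; adjusted p = 5.08e-05). Epcam, an epithelial adhesion molecule, instead rose from 347, 323 and 307 to 672, 573 and 418 CPM (0.76 ± 0.16; adjusted p = 0.00348). The tight junction scaffold Tjp3 and the epithelial transcription factor Ovol1 had log2 fold changes of -1.67 and -2.02. In all, 14 of 28 epithelial genes tested fell, 2 rose and 12 were not called, with a median of -0.37 and a summed level of 6344 to 6815 CPM in cultures and 4791, 4977 and 3917 CPM in tumors. With the zero point set to this list its median is 0 by construction, Krt18 had a log2 fold change of 0.13, and Cdh1, Krt7, Tjp3 and Ovol1 stayed lower.

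Mesenchymal genes rose beside these keratins. In the list of EMT transcription factors and mesenchymal genes, 15 of 17 rose and 1 fell, with a median of 3.34. Vim, the intermediate filament of mesenchymal cells, stood at 37.8, 35.6 and 35.5 CPM in cultures and 1160, 882 and 912 CPM in tumors (4.76 ± 0.14; adjusted p = 4.41e-07). Zeb1 and Zeb2, repressors of E-cadherin, went from 0.508, 0.536 and 0.378 to 31.4, 22.9 and 29.2 CPM and from 18.7, 18.2 and 18.7 to 212, 150 and 229 CPM. Snai1 rose least of those named, from 6.32, 6.17 and 6.54 to 9.55, 9.83 and 9.43 CPM (0.60 ± 0.15; adjusted p = 0.00879), and was not called in thinned counts (0.50; adjusted p = 0.181). Prrx1 had 8 culture counts and 57.1, 73.6 and 73.3 CPM in tumors, and Tgfbi, a TGF-beta-induced matrix protein, went from 1.07, 0.912 and 0.756 to 261, 154 and 225 CPM. Axl, a receptor kinase often listed with mesenchymal genes, was high in cultures and fell from 632, 613 and 628 to 282, 334 and 345 CPM. Fibroblasts, macrophages and endothelial cells also express Vim, Zeb1 and Zeb2, and the summed markers of these cells rose in the same tumors; their part in the mesenchymal values was not tested.

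**Figure D2:**
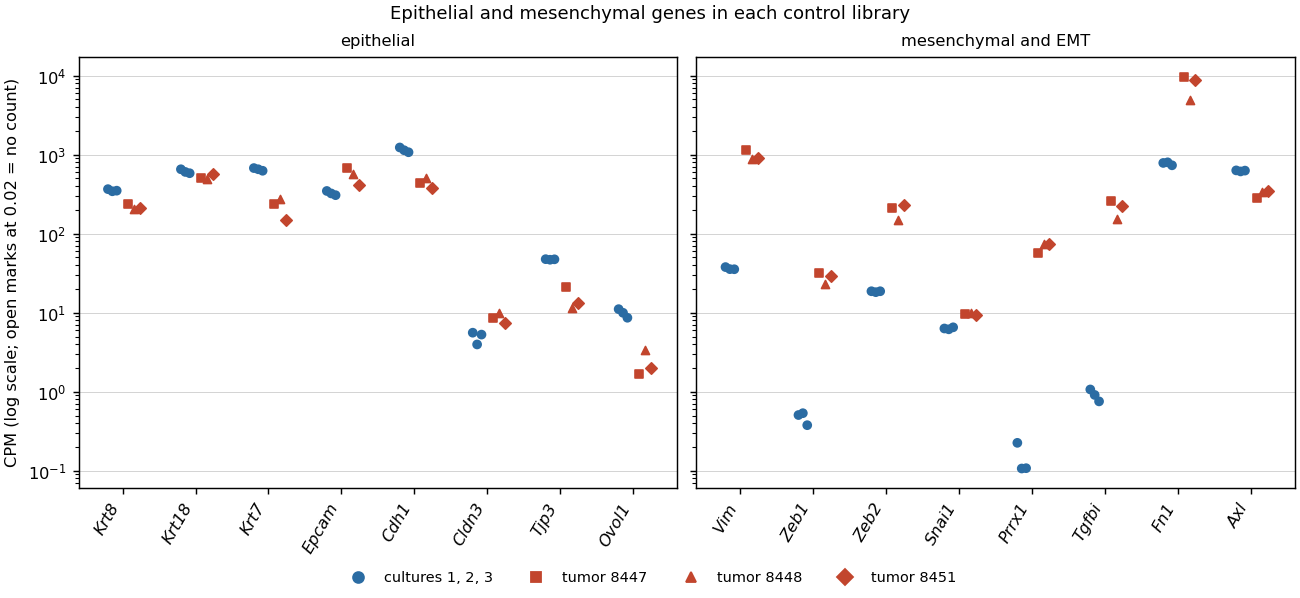
CPM on a log axis for epithelial genes (left) and mesenchymal genes (right), with cultures as round marks and each tumor by its own shape. Krt18 lies at 582 to 653 CPM in cultures and 486 to 561 CPM in tumors, Cdh1 and Axl are lower in every tumor, and Vim lies at 35.5 to 37.8 CPM in cultures and 882 to 1160 CPM in tumors.

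Genes of cell division were lower in tumors almost without exception. All 40 genes of DNA replication and E2F targets fell, with a median of -1.55, and all 35 genes of mitosis and G2/M fell, with a median of -2.14, against 29.5% lower and a median of 0.07 over all genes. Promoters are shown for genes of these lists because their known regulators read short, recognizable letters: NF-Y binds CCAAT boxes, late cell cycle genes carry the element TTTGAA, and E2F proteins bind sites such as TTTGGCGC. The stretches are the 200 bases before a RefSeq gene start in GRCm38.p6, read 5′ to 3′ on the gene's strand. Capitals mark the first 2 elements in Ccnb2 and Cdk1 and the third in Mcm5, on either strand, so that a CCAAT box of the other strand appears as its reverse complement. No matches overlap. Ccnb2 lies at chr9:70421555-70421754 on the minus strand, Cdk1 at chr10:69352913-69353112 on the minus strand and Mcm5 at chr8:75109309-75109508 on the plus strand.
Ccnb2: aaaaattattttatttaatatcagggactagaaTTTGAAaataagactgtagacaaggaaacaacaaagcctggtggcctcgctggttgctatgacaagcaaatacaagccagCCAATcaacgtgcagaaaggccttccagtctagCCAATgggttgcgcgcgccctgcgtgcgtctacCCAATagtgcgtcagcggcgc
Cdk1: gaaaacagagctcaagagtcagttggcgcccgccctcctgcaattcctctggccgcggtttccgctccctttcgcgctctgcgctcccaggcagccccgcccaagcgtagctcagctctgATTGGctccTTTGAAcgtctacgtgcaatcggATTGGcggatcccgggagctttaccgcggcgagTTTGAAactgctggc
Mcm5: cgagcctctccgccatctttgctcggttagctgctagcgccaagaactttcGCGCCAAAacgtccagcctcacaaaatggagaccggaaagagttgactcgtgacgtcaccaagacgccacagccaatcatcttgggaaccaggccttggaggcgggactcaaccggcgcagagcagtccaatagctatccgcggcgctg
In the window from 250 bases before to 50 after any listed start of a gene, CCAAT was present in 24 of 29 mitosis genes with an entry (82.8%) against 41.1% of 27025 genes, and TTTGAA in 21 of 29 (72.4%) against 20.2%. TTTGGCGC was present in 7 of 33 replication genes (21.2%) against 0.6%. A match describes letters in this window and no binding.

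Ccnb2, the cyclin B2 whose promoter carries 3 CCAAT boxes above, stood at 139, 124 and 133 CPM in cultures and 25.5, 12.4 and 18.5 CPM in tumors (log2 fold change -2.84 ± 0.22; adjusted p = 2.20e-05). Cdk1, its kinase, went from 178, 177 and 188 to 63.0, 41.3 and 47.7 CPM (-1.85 ± 0.15). Plk1, a mitotic kinase, went from 96.3, 84.0 and 75.7 to 22.3, 7.79 and 13.8 CPM. Mki67, the proliferation antigen Ki-67, was at 1102, 1190 and 1031 CPM in cultures and 391, 179 and 260 CPM in tumors, and Top2a at 1015, 1015 and 1011 against 448, 202 and 311 CPM. T8447 was the highest and T8448 the lowest of the tumors for all 5 of these genes, and the mitosis sum had the same order (2459, 1113 and 1735 CPM, against 6310 to 6666 CPM in cultures). Among replication genes, Mcm5, a subunit of the replicative helicase, went from 269, 270 and 270 to 47.8, 48.6 and 39.7 CPM (-2.57 ± 0.10; adjusted p = 1.11e-06), and Mcm3 fell by 2.52 ± 0.10. Rrm2, a subunit of ribonucleotide reductase, fell from 259, 250 and 256 to 51.1, 19.3 and 27.4 CPM. Mybl2, Cdca3 and Cdc25c, regulators of mitotic entry and exit, fell with log2 fold changes of -3.03, -2.91 and -2.61, and the replication licensing factor Cdc6 fell by 2.58.

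Clustered histone genes, which are transcribed in S phase, fell in 27 of 28 cases, with a median of -2.29. Hist1h4k went from 76.1, 83.1 and 95.1 to 21.6, 13.2 and 16.3 CPM and Hist1h2bk from 33.9, 37.7 and 46.9 to 4.46, 1.08 and 3.45 CPM. The exception, Hist1h1a, rose from 1.13, 1.34 and 0.702 to 10.2, 1.08 and 8.64 CPM with overlapping groups, and its call was lost without T8451 (2.23; adjusted p = 0.0558) and with limma-voom (1.99; adjusted p = 0.0716). These genes are near-identical in sequence, so single members are uncertain. They are also short, with a median exon length of 630 bases. Among genes whose mean log2 CPM was 3 or more, the 2247 shortest (53 to 2317 bases) had a median of -0.43. The 2247 longest (7710 to 123179 bases) had a median of 0.20, and the part of length in the histone values was not tested.

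**Figure D3:**
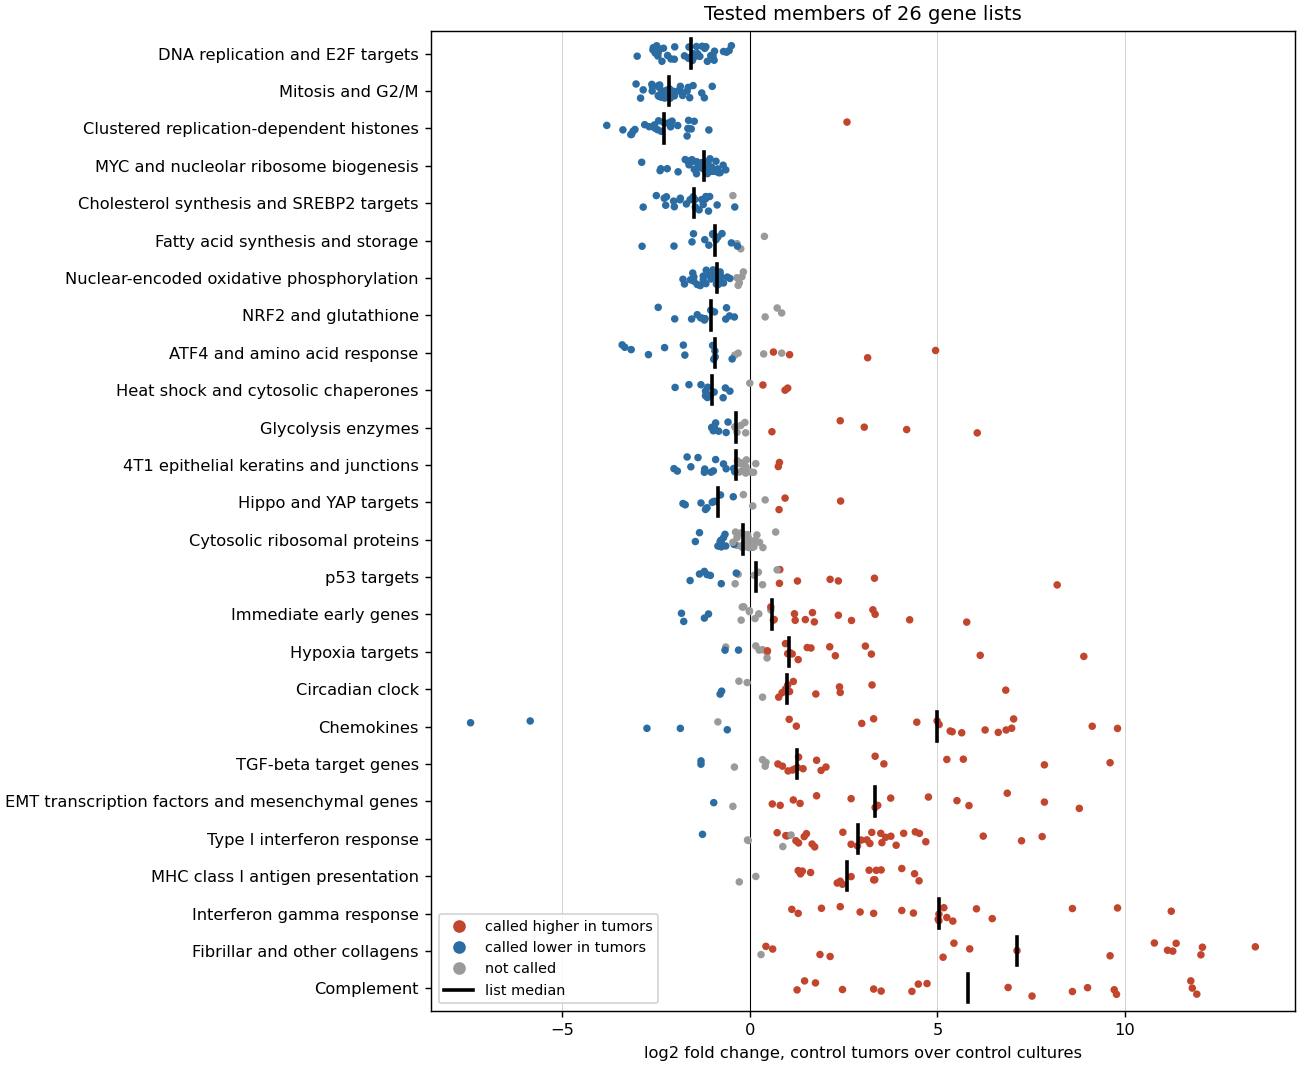
Each row is a gene list and each point a tested member at its log2 fold change of control tumors over control cultures, in red or blue where called and grey where not; black bars are list medians, and genes with no count in 1 group are drawn at their bound. Replication, mitosis, histone and ribosome biogenesis rows lie left of 0 with nearly all members called, and interferon gamma, collagen and complement rows lie right of 0.

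Biosynthetic genes that accompany growth were lower too. All 32 genes of MYC targets and nucleolar ribosome biogenesis fell, with a median of -1.23. Odc1, which makes polyamines, went from 322, 296 and 289 to 47.8, 33.6 and 42.5 CPM (-2.88 ± 0.14; adjusted p = 2.60e-06), and the next enzyme of that path, Srm, fell by 2.20. Nolc1, a nucleolar assembly factor, went from 423, 398 and 371 to 86.4, 71.8 and 70.7 CPM, and Cad, the entry enzyme of pyrimidine synthesis, from 314, 328 and 333 to 69.0, 61.3 and 59.5 CPM. The ribosomal proteins themselves moved little, with a median of -0.19 that turned to 0.17 with the epithelial zero point. Of 40, 11 fell, near the 29.5% lower over all genes, none rose and 29 were not called. Rplp0, a stalk protein, fell from 486, 497 and 562 to 174, 222 and 211 CPM, and Rpl4 from 1792, 1603 and 1486 to 782, 1111 and 921 CPM. In the list of heat shock genes and cytosolic chaperones 12 of 16 fell and 3 rose. The abundant Hsp90aa1 went from 1083, 1013 and 1007 to 375, 342 and 298 CPM and the mitochondrial chaperonin Hspd1 from 786, 765 and 737 to 253, 159 and 166 CPM, whereas the stress-inducible, near-identical Hspa1a and Hspa1b rose by 1.01 and 0.94.

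Cholesterol synthesis fell as a pathway: 23 of 24 genes of the list fell and none rose, with a median of -1.48. SREBP2, the factor that drives these genes when sterols are low, works with NF-Y, which binds CCAAT boxes, and CCAAT was present in 16 of 17 promoters of the list (94.1%, against 41.1% of all). The promoter of Nsdhl, an enzyme of late sterol synthesis, is shown as an example, at chrX:72918321-72918520 on the plus strand, with CCAAT on either strand in capitals.
Nsdhl: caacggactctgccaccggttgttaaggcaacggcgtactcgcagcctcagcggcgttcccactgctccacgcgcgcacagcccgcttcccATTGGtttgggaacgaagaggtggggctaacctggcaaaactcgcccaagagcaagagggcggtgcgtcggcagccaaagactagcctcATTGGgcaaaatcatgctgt
Nsdhl itself was at 61.9, 62.0 and 59.5 CPM in cultures and 14.6, 11.8 and 11.8 CPM in tumors (-2.28 ± 0.11; adjusted p = 3.06e-06). Acat2, at the entry of the pathway, went from 84.9, 87.1 and 86.9 to 14.0, 10.1 and 12.4 CPM.

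Of the cholesterol efflux and LXR target list, whose members are prominent in macrophages, 5 of 10 genes rose, 2 fell and 3 were not called (median 0.52); macrophage markers rose in the same tumors, and their part in these values was not tested. Abca1, the cholesterol exporter, had 12 culture counts (0.113, 0.161 and 0.378 CPM) and stood at 264, 223 and 229 CPM in tumors (log2 fold change 10.03 ± 0.24; adjusted p = 2.01e-07). Abcg1 had 4 culture counts and 39.3, 26.7 and 27.6 CPM. Apoe, the lipid carrier, rose from 5.19, 5.58 and 4.32 to 1423, 721 and 652 CPM, and Mylip, a ubiquitin ligase, from 6.72, 6.81 and 5.73 to 57.3, 46.8 and 43.4 CPM. Scd1, a desaturase, and Lpcat3, a phospholipid acyltransferase, fell with log2 fold changes of -1.03 and -0.90, the first a call that was lost without any 1 culture (adjusted p = 0.0603 to 0.0796). Fatty acid synthesis fell in 13 of 16 genes with none higher (median -0.94). Scd2, a stearoyl desaturase and one of the most abundant culture transcripts, went from 2079, 2041 and 2051 to 774, 616 and 789 CPM, Fasn from 726, 733 and 725 to 281, 191 and 278 CPM, and Fads2, a polyunsaturated fatty acid desaturase, from 125, 113 and 107 to 18.3, 10.1 and 19.5 CPM.

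Amino acid supply genes showed some of the steepest metabolic falls. In the list of ATF4 targets and amino acid response 12 of 20 fell and 4 rose, with a median of -0.93. Asns, asparagine synthetase, was at 204, 197 and 190 CPM in cultures and 13.8, 27.9 and 23.1 CPM in tumors (-3.16 ± 0.22; adjusted p = 1.41e-05). Psat1, of serine synthesis, went from 315, 302 and 312 to 24.0, 36.9 and 30.4 CPM, Mthfd2, of mitochondrial folate metabolism, from 125, 124 and 125 to 5.09, 18.1 and 10.6 CPM, and the amino acid transporter Slc7a5 from 275, 266 and 274 to 29.1, 43.1 and 52.0 CPM. Chac1, a glutathione-degrading enzyme induced by ATF4, fell from 8.92, 9.71 and 9.08 to 1.06, 4.44 and 2.13 CPM. Its promoter holds the C/EBP-ATF element TGATGCAA, in capitals below as it reads on the other strand (TTGCATCA), at chr2:119351042-119351241 on the plus strand.
Chac1: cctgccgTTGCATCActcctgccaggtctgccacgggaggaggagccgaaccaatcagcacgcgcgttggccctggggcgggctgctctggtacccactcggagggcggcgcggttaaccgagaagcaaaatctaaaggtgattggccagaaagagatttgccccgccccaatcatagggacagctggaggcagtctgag
The element was present in 6 of 19 promoters of the list (31.6%, against 1.0% of all genes). Of these 6, 4 belonged to genes called in either direction, beside 13 of the 19. Over all genes, 11172 of 17123 tested were called. Carriers of the element included Chac1, which fell, and Vldlr, which rose. Vldlr and Aldh1l2 were exceptions that rose, Vldlr with 15 culture counts to 5.52, 14.0 and 6.11 CPM and Aldh1l2 with a log2 fold change of 3.14 ± 0.32. The unfolded protein response list split, with 3 of 19 higher, 6 lower and 10 not called. Its transcription factor Xbp1 rose from 54.9, 56.4 and 60.2 to 136, 92.5 and 155 CPM while the chaperone Hyou1 fell from 247, 243 and 243 to 154, 117 and 149 CPM.

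Mitochondrial genes diverged by genome. Of 34 nuclear genes of oxidative phosphorylation 29 fell and none rose (median -0.88); Atp5b, the catalytic subunit of ATP synthase, went from 1532, 1508 and 1563 to 503, 431 and 449 CPM (-1.74 ± 0.11), and Uqcrc1, of complex III, from 216, 213 and 222 to 80.4, 70.6 and 67.0 CPM. Of 9 tested transcripts of the mitochondrial genome 5 rose and none fell (median 0.67); mt-Nd4, of complex I, was at 3322, 3582 and 2966 CPM in cultures and 6564, 5202 and 6729 CPM in tumors (0.91 ± 0.16; adjusted p = 0.00140), and mt-Co1, of complex IV, at 6386, 6815 and 5568 against 10660, 11731 and 10663 CPM. Median exon length was 2124 bases in the nuclear list and 1038 bases in the mitochondrial list. It was 1806 bases in the ribosomal protein list, whose median log2 fold change was -0.19. The part of length in these values was not tested. Antioxidant genes of the NRF2 list fell in 14 of 17 cases with none higher (median -1.04): Nqo1, a quinone reductase, went from 4.57, 5.90 and 6.16 to 0.637, 0.839 and 1.46 CPM, and G6pdx, which supplies NADPH, from 134, 124 and 127 to 58.4, 40.1 and 34.1 CPM.

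Hypoxia targets rose in 14 of 22 cases and fell in 2, with a median of 1.04, and of 19 enzymes of glycolysis, several of which hypoxia can induce, 8 fell and 5 rose. Vegfa, the main vascular growth factor, rose from 29.2, 28.0 and 26.7 to 149, 112 and 147 CPM (2.28 ± 0.13; adjusted p = 5.58e-06). Adm, adrenomedullin, went from 1.41, 1.61 and 1.51 to 11.5, 16.3 and 14.9 CPM, and Loxl2, a collagen crosslinker, from 0.452, 0.644 and 0.378 to 38.2, 39.0 and 29.5 CPM. Slc2a3, a glucose transporter, had 1 culture count and 7.22, 18.9 and 13.3 CPM in tumors. The core of the hypoxia response element, ACGTG, was present in 14 of 18 promoters of the list (77.8%, against 21.8% of all). The promoter of Ankrd37 carries it just before the start, in capitals, at chr8:45999851-46000050 on the minus strand.
Ankrd37: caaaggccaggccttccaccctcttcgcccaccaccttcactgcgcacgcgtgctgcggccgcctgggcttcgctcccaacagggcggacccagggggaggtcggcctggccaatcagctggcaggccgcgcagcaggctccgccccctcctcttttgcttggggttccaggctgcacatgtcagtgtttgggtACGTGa
Ankrd37 rose from 1.86, 1.82 and 2.22 to 9.55, 19.4 and 20.3 CPM (3.08 ± 0.32), with 26.4% of its exon length shared with another gene. Of 19 glycolysis genes 8 fell, 5 rose and 6 were not called. Pkm fell from 1354, 1261 and 1202 to 514, 764 and 615 CPM, Ldha from 588, 578 and 583 to 270, 327 and 295 CPM, and Tpi1 by 0.94. The lactate exporter Slc16a3 and the aldolase gene Aldoc rose from 1.02, 1.61 and 1.46 to 21.6, 23.3 and 29.6 CPM and from 6.04, 5.74 and 4.54 to 62.8, 21.9 and 52.5 CPM. T8447 had the lowest hypoxia and glycolysis sums of the 3, at 1732 and 2165 CPM.

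**Figure D4:**
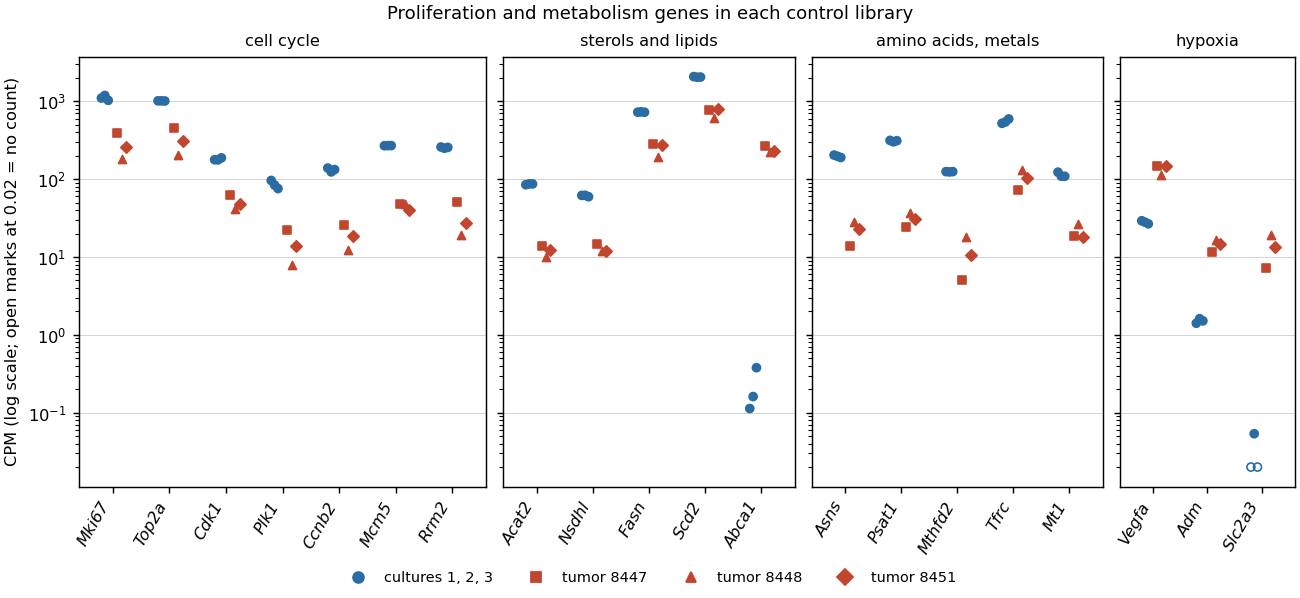
CPM on a log axis for cell cycle, sterol and lipid, amino acid and metal, and hypoxia genes in each control library; open marks at 0.02 have no count. The cultures almost coincide for every gene drawn except those near 0, all cell cycle and synthesis genes drawn are lower in every tumor, and Abca1, Vegfa, Adm and Slc2a3 are higher in every tumor.

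Metal handling changed on both sides. Tfrc, the transferrin receptor through which dividing cells import iron, fell from 522, 543 and 594 to 72.2, 133 and 105 CPM (-2.41 ± 0.21; adjusted p = 4.07e-05), while Trf, transferrin itself, had 3 culture counts and 277, 216 and 202 CPM in tumors; 63.5% of the exon length of Trf overlaps another gene. The metallothioneins Mt1 and Mt2, which bind zinc and copper, fell from 123, 109 and 109 to 18.5, 26.7 and 17.9 CPM and from 148, 139 and 137 to 15.7, 32.3 and 18.7 CPM, and the zinc exporter Slc30a1 fell by 2.07. Haptoglobin, Hp, had 4 culture counts and 14.0, 26.3 and 10.2 CPM. Over the list 5 of 11 rose and 5 fell.

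Genes that respond to serum, hormones and time of day more often rose than fell. Of 26 immediate early genes 14 rose and 4 fell (median 0.59): Fos went from 3.10, 3.11 and 2.92 to 29.1, 30.5 and 29.6 CPM (3.28 ± 0.13; adjusted p = 1.11e-06), Egr2 from 0.565, 0.268 and 0.378 to 23.6, 16.3 and 28.2 CPM, and Dusp6, a brake on ERK signalling, from 70.3, 69.2 and 64.4 to 550, 341 and 447 CPM. Ier3 fell from 153, 159 and 159 to 26.7, 59.2 and 45.4 CPM. Of 18 clock genes 13 rose and 2 fell (median 0.98), with Per2 from 5.70, 4.56 and 5.24 to 29.9, 29.1 and 22.7 CPM, Bhlhe41 from 32.6, 32.6 and 30.3 to 152, 247 and 110 CPM, and Arntl down from 30.3, 27.2 and 26.6 to 17.4, 15.9 and 15.4 CPM. Of 11 glucocorticoid targets 8 rose and 3 fell (median 1.06). Tsc22d3 and Sgk1, direct targets of the receptor, went from 6.04, 8.42 and 8.37 to 26.5, 38.6 and 31.0 CPM and from 17.2, 16.7 and 16.6 to 50.7, 63.8 and 62.2 CPM, and the receptor gene Nr3c1 fell from 190, 184 and 187 to 114, 80.2 and 95.5 CPM. Of 20 p53 targets 7 were higher and 7 lower, near the 35.7% higher and 29.5% lower over all genes. Btg2 rose by 2.36, and the death receptor gene Tnfrsf10b and Bax fell with log2 fold changes of -1.14 and -1.21.

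Interferon-responsive genes rose together. All 19 genes tested of the interferon gamma response rose (median 5.04), their sum going from 219 to 230 CPM in cultures to 4463, 4213 and 4119 CPM, and 28 of 33 genes of the type I interferon response rose with 1 lower (median 2.87). Interferon-bound receptors act through transcription factors, the IRF proteins among them, that bind repeats of GAAA, so promoters are shown for an interferon gamma target and for B2m, with GAAANNGAAA in capitals. Tgtp2 lies at chr11:49064213-49064412 on the minus strand and B2m at chr2:122147487-122147686 on the plus strand.
Tgtp2: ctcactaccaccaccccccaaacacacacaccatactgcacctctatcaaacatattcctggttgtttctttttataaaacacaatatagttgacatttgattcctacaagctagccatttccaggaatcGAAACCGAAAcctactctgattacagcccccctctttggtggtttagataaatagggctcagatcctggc
B2m: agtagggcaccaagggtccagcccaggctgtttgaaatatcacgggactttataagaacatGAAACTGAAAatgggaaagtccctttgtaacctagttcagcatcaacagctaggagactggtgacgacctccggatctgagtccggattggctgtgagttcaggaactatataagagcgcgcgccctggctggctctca
The repeat was present in 11 of 16 interferon gamma promoters (68.8%), 13 of 23 type I promoters (56.5%) and 4 of 16 MHC class I promoters (25.0%), against 4.0% of all genes. Tgtp2, an interferon-induced GTPase with a near-identical copy, rose from 3.33, 3.22 and 3.30 to 310, 225 and 333 CPM (6.46 ± 0.19; adjusted p = 4.41e-07). Iigp1, of the same class, had 13 culture counts and stood at 681, 439 and 656 CPM in tumors. Cxcl9, a chemokine induced by interferon gamma, had no culture count and 181, 151 and 105 CPM in tumors, at least 890-fold higher, and Cxcl10 rose from 2.37, 2.25 and 2.54 to 31.0, 20.4 and 20.5 CPM.

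Among type I genes, Zbp1, a sensor of nucleic acids, went from 0.452, 0.751 and 0.216 to 153, 69.2 and 102 CPM, Ifi44 from 0.903, 0.751 and 1.13 to 193, 93.3 and 141 CPM, and the oligoadenylate synthetase Oas2 from 0.621, 0.644 and 0.378 to 68.3, 18.1 and 40.3 CPM. Each was highest in T8447 and lowest in T8448. Oasl1, a relative of Oas2, was in contrast at 34.4, 34.4 and 36.0 CPM in cultures and fell to 21.6, 6.72 and 16.7 CPM (-1.26 ± 0.33; adjusted p = 0.0104). MHC class I genes rose in 16 of 18 cases with none lower (median 2.58). H2-D1 and H2-K1, the classical class I chains, went from 249, 248 and 257 to 1347, 1171 and 1287 CPM and from 141, 142 and 141 to 841, 691 and 725 CPM; their sequence is shared in part with other class I genes. Tap1, the peptide transporter, rose from 8.64, 7.67 and 8.81 to 183, 153 and 193 CPM (4.39 ± 0.14), Psmb9, of the immunoproteasome, from 2.65, 1.98 and 3.19 to 68.8, 43.7 and 67.5 CPM, and the class I activator Nlrc5 from 20.8, 24.2 and 25.0 to 307, 402 and 447 CPM. All 18 tested genes of complement, of 20 listed, rose (median 8.14, or 5.81 at the bound), 4 of them without a culture count. Serping1, an inhibitor of the cascade, had no culture count and reached 72.4, 67.3 and 50.8 CPM, at least 387-fold higher. Immune cells express many of these genes, and their markers rose in the same tumors; their part in the interferon and antigen presentation values was not tested.

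A CCAAT box is also part of the conserved promoter module of MHC class II genes, and that of H2-Aa is printed for comparison with the cell cycle and sterol genes above, at chr17:34287824-34288023 on the minus strand, with CCAAT on either strand in capitals.
H2-Aa: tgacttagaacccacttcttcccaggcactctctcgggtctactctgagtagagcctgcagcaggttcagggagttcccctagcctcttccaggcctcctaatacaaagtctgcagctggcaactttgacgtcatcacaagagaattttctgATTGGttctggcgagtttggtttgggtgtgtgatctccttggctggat
Here 8 of 16 promoters of the dendritic cell and class II list held CCAAT (50.0%, against 41.1% of all genes). H2-Aa rose from 2 counts, whereas Ccnb2, Cdk1 and Nsdhl, with the same letters, fell.

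The chemokines that were most abundant in cultures fell in tumors, and others appeared. Of 23 chemokine genes tested 17 rose and 5 fell. Among the 23, 8 had no culture count and were tested through their tumor counts alone. The median was 6.27 (4.99 at the bound), yet the summed level fell in CPM from 1041 to 1187 in cultures to 725, 764 and 692 in tumors. Cxcl5 alone held 600, 656 and 773 CPM of the culture sum. Cxcl1, another neutrophil attractant, fell from 223, 205 and 205 to 33.1, 83.1 and 57.0 CPM (-1.85 ± 0.28; adjusted p = 6.32e-04). Ccl20, a ligand of CCR6, was at 17.6 to 19.3 CPM in cultures and had 2 counts in all tumors. Csf3, granulocyte colony-stimulating factor, fell from 65.9, 68.2 and 78.1 to 4.67, 18.1 and 15.7 CPM. For Cxcl5, Cxcl1 and Csf3, T8447 was the lowest, as it was for S100a8 and S100a9.

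Of the chemokines that rose, Cxcl14 had no culture count and 116, 81.9 and 76.9 CPM in tumors, at least 558-fold higher. Ccl8 and Ccl12, monocyte attractants, had none and reached 26.7, 11.4 and 23.9 CPM and 9.55, 2.76 and 12.4 CPM, at least 126-fold and 50.1-fold higher. In the list of inflammatory cytokines and NF-kB targets 15 of 24 rose and 6 fell; its median was 1.24 while its summed level was 0.857 of that in cultures. Ptgs2, cyclooxygenase 2, fell from 755, 714 and 708 to 62.0, 94.7 and 147 CPM (-2.83 ± 0.29; adjusted p = 8.35e-05), and Il1a, an alarm cytokine, from 304, 295 and 298 to 69.0, 154 and 86.1 CPM. Arg1, an arginine-degrading enzyme of suppressive macrophages, rose from 1.64, 1.93 and 1.73 to 320, 321 and 389 CPM (7.60 ± 0.16; adjusted p = 1.89e-07). Il10 had 1 culture count and 9.34, 10.4 and 5.31 CPM, Osm, oncostatin M, had 2 and 2.12, 15.8 and 10.4 CPM, and the acute phase gene Saa3 had 4 and 17.6, 16.1 and 18.1 CPM. Lcn2, an iron-binding protein of epithelium and neutrophils, rose from 11.9, 9.98 and 9.51 to 274, 58.0 and 281 CPM. Receptors for colony-stimulating factors rose, with Csf2rb at 81.3, 79.0 and 100 CPM from 1 culture count and Csf2ra at 17.6, 19.1 and 31.1 CPM from 3.

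**Figure D5:**
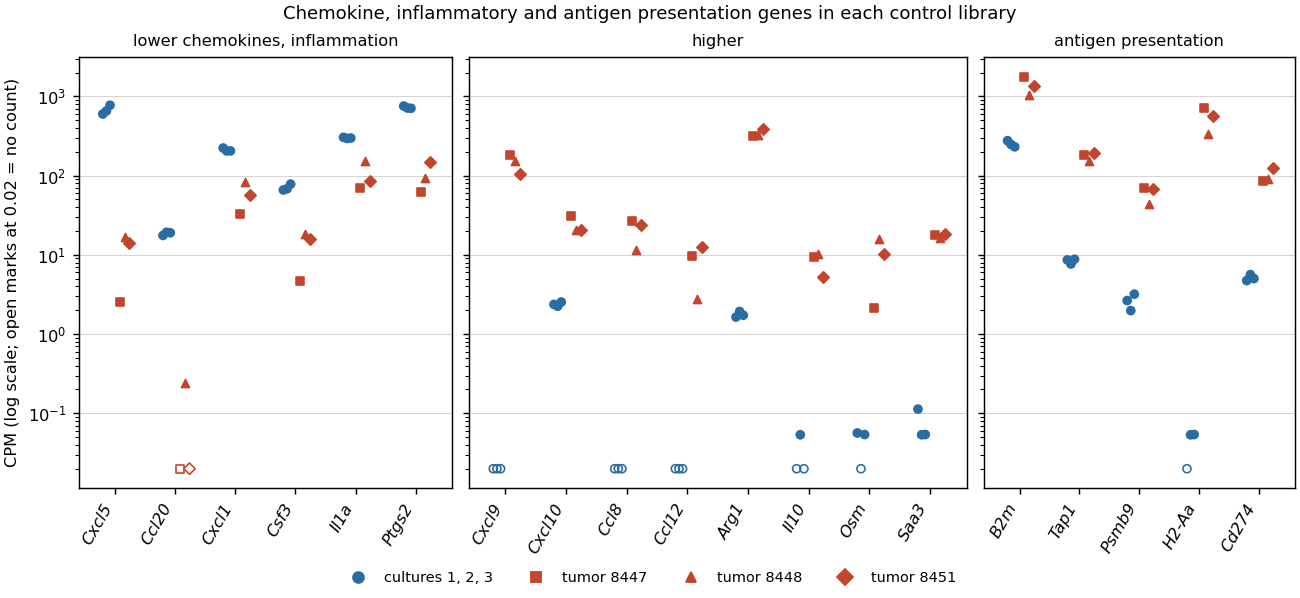
CPM on a log axis for chemokine, cytokine and antigen presentation genes in each control library; open marks at 0.02 have no count. The left panel holds genes that were lower in every tumor, among them Cxcl5 at 600 to 773 CPM and Ptgs2 at 708 to 755 CPM in cultures. The other panels hold genes that were higher in every tumor, led by B2m and H2-Aa.

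Matrix genes gave some of the largest rises. Of 17 collagens 16 rose and none fell (median 9.51, or 7.12 at the bound). Col3a1 had 4 culture counts and 1247, 741 and 838 CPM in tumors, Col1a2 had 10 and 1007, 591 and 809 CPM, and Col1a1 went from 1.52, 1.50 and 1.46 to 1407, 887 and 1218 CPM (9.60 ± 0.25; adjusted p = 2.63e-07). Col6a1 and Col6a2 had 4 and 1 culture counts and 282, 97.9 and 277 CPM and 157, 70.0 and 135 CPM in tumors. All 5 were lowest in T8448. Col3a1, Col1a2 and Col1a1 are also members of the fibroblast list above, so the collagen and fibroblast results share transcripts. Fibroblast markers rose in the same tumors, and their part in the matrix values was not tested. Basement membrane genes moved less, with 9 of 16 higher and none lower (median 0.79); the laminin chain gene Lama4 rose from 0.452, 0.0536 and 0.216 to 86.2, 58.3 and 63.2 CPM and Nid1 from 2.31, 2.09 and 2.65 to 114, 103 and 82.5 CPM. Among matrix glycoproteins and proteoglycans 17 of 21 rose and 2 fell. Thbs2 and Thbs1, related thrombospondins, moved in opposite directions: Thbs2 had 2 culture counts and 496, 368 and 336 CPM, while Thbs1 fell from 1396, 1329 and 1325 to 595, 448 and 606 CPM (-1.30 ± 0.14; adjusted p = 1.10e-04). Bgn, biglycan, rose from 0.508, 0.590 and 0.810 to 247, 237 and 256 CPM.

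In the list of matrix proteases, their inhibitors and crosslinking enzymes 22 of 28 genes rose and 3 fell. Lox, lysyl oxidase, had 1 culture count and 107, 157 and 158 CPM in tumors, and the macrophage elastase gene Mmp12 had 7 and 97.8, 174 and 173 CPM. Mmp8, a neutrophil collagenase, had none and 2.12, 16.7 and 6.38 CPM. Timp2, a protease inhibitor, fell from 531, 515 and 512 to 276, 191 and 261 CPM. In the TGF-beta family 20 of 26 ligands, receptors and SMADs rose and 3 fell (median 0.85). Grem1, a secreted BMP antagonist, had no culture count and 53.5, 68.1 and 71.7 CPM in tumors, at least 393-fold higher, and Inhbb, an activin subunit, went from 0.677, 1.07 and 0.378 to 66.4, 32.9 and 40.5 CPM. Tgfb2 and the receptor gene Tgfbr2, both present in cultures, fell with log2 fold changes of -1.02 and -0.73, though Tgfb2 was not called in counts thinned to 1 depth (-0.66; adjusted p = 0.0978). Of 23 TGF-beta target genes 17 rose and 2 fell (median 1.27); the risers named by size, Acta2, Tagln, Tgfbi and Col1a1, are also fibroblast or smooth muscle genes, and Thbs1 and Id2 (102, 87.2 and 86.0 against 31.6, 31.5 and 48.0 CPM) fell. Fibroblast markers rose in the same tumors, and their part in the TGF-beta target values was not tested.

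Other signalling lists held members that fell beside members that rose. Of 16 Hippo and YAP targets 10 fell and 3 rose (median -0.85): Ankrd1 went from 172, 158 and 146 to 44.1, 38.9 and 61.0 CPM and Amotl2 from 96.5, 93.7 and 95.1 to 27.2, 48.0 and 49.6 CPM, while Nt5e, the ectonucleotidase CD73, rose from 62.8, 63.2 and 67.6 to 328, 430 and 278 CPM. Their summed level did not separate the groups (exact permutation p = 0.5). In the WNT list 11 of 17 rose and 2 fell. Axin2, a feedback target, had no culture count and 6.79, 6.24 and 4.78 CPM, and Wnt5a had 2 and 18.7, 22.2 and 28.4 CPM, whereas Wnt10a fell from 30.4, 30.1 and 30.7 to 5.09, 8.27 and 2.52 CPM. Of 11 Notch genes 8 rose and 1 fell, with Notch3, a receptor of mural cells, from 0.960, 1.66 and 1.08 to 24.6, 31.7 and 21.9 CPM and Jag1 from 58.3, 56.4 and 58.3 to 118, 297 and 107 CPM. In the list of EGF receptor family genes and ligands 2 of 10 rose, 4 fell and 4 were not called. The ligands that fell were Areg, Btc and Nrg1: Areg went from 46.3, 41.7 and 38.7 to 10.4, 7.67 and 6.91 CPM, Btc from 18.4, 20.3 and 20.2 to 1.06, 1.92 and 1.59 CPM and Nrg1 from 19.2, 17.4 and 18.4 to 3.82, 1.80 and 3.85 CPM, while Egfr stood at 19.1, 27.1 and 22.3 CPM in tumors, with a log2 fold change of 3.88 ± 0.20. The other receptors called moved less, Erbb2 by 0.27 and Erbb3 by -0.38 on the log2 scale, and both calls were lost without 1 library: Erbb2 without any 1 culture or T8447 (adjusted p = 0.0512 to 0.135) and Erbb3 without culture 1 or 3 (0.0552 and 0.0615). Angiogenic genes rose in 12 of 18 cases and fell in 4; beside Vegfa, Esm1, an endothelial tip cell gene, had no culture count and 7.43, 2.64 and 9.83 CPM, and Vegfb fell from 54.5, 51.7 and 50.8 to 12.1, 14.3 and 16.2 CPM.

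Lysosomal genes rose in 13 of 22 cases and fell in 4 (median 0.58). Hexa, a subunit of lysosomal hexosaminidase that most cells are known to express, had 1 count in the 3 cultures and 52.8, 18.8 and 38.5 CPM in tumors. Atp6v0d2, a proton pump subunit of macrophages and osteoclasts, had no culture count and 3.61, 17.0 and 3.32 CPM. Ctsl, a cathepsin, fell from 692, 665 and 666 to 331, 379 and 383 CPM. Long nuclear RNAs rose in 5 of 8 cases with none lower. Xist, the RNA that coats the inactive X chromosome, was at 0.677, 0.751 and 0.972 CPM in cultures and 617, 626 and 732 CPM in tumors (log2 fold change 9.67 ± 0.19; adjusted p = 1.68e-07), and Tsix, its antisense partner, cannot be told from it without strand. H19, an imprinted RNA, had no culture count and 23.1, 304 and 18.2 CPM, high in the same tumor as the globins, and Meg3 had none and 25.9, 19.5 and 26.8 CPM. Among 11 small structural RNA genes 5 rose and 2 fell; Rny1 fell from 270, 227 and 305 to 13.8, 23.6 and 52.2 CPM.

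By chromosome, the median log2 fold change of genes whose mean log2 CPM was 3 or more lay between -0.16 and 0.04 on most, at 0.24 on chromosome 3 (545 genes), at -0.28 or -0.29 on chromosomes 6, 8, 15 and 19 and at -0.35 on the X (352 genes). These medians are given without a test. In a test of whether the tumor-culture difference depends on the genotype label, over all 12 libraries, 377 of 18419 genes passed (2.05%), with 209 more positive in libraries labelled KO and 168 more negative. DESeq2 gave 953, and 2831 had an unadjusted p under 0.05. The count is sensitive to single libraries: it was 1588 without 1 of the tumors labelled KO, titled POGZ_KO_8454, 629 without T8448 and 147 to 165 when any 1 culture was left out.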

How the data were processed

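RNA was depleted of ribosomal RNA (KAPA RNA Hyper Prep with Ribo-Erase), per the labels' protocols. The submitters' processing notes name Trimmomatic 0.32, STAR 2.3.0e, featureCounts 1.4.4 and mm10; the annotation and strand setting are not given in the sources used here. The values deposited by the authors are raw read counts per gene, tumors and cultures in separate tables, joined here by Ensembl gene ID (39017 genes, of which 37693 are in GENCODE M21).

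edgeR 4.0.16 (R 4.3.3) was used with filterByExpr, TMM scaling and the quasi-likelihood test on the 6 control libraries, and Benjamini-Hochberg adjustment over 17123 genes, with calls at an adjusted p under 0.05. The genotype test used all 12 libraries. The scripts were tested on simulated data. CPM values are counts per 1000000 of the library total. Summed levels were compared by a two-sided exact permutation test, whose smallest p is 0.1. Where a group had no count, folds are lower bounds against 3 counts per library. With 17714560 to 18643217 counts in cultures and 4712001 to 8338828 in tumors, that floor is 0.164 CPM over the cultures and 0.465 CPM over the tumors.

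Named genes are Pogz and the 12 highest per kilobase among those over 4-fold higher, and over 4-fold lower, whose groups did not overlap. Added to these are the 8 largest rises and falls whose mean log2 CPM is 3 or more. From each list come up to 4 called members of the main direction and 2 of the other, with at least 5 CPM. Mki67, Top2a, Cdk1, Plk1, Cdh1, Krt8, Krt18, Vegfa, Cd274, S100a8, Cxcl10, Cxcl1, Csf1r, Pecam1, Snai1, Zeb2, Chac1, Ccr2, Gzmc, Gzmd, Gzmf, Hoxb4, Hoxc8, Stfa2l1, Ms4a6d, Gimap5 and Cdkn2b were chosen after their values were seen. Some named genes are not reported here. Samples, gene lists (62, of 1185 symbols, 1040 tested) and tests were chosen with earlier results of these data known. Promoter sequences come from RefSeq (GRCm38.p6, the assembly of mm10). Other scalings, filters, tools and left-out libraries were tried.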

Additional observations from a re-analysis of the deposited data

Results flagged for a closer look

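For 20 of the 336 named genes (5.95%, against 2.05% of all genes tested), the tumor-culture difference depended on the genotype label, by edgeR's interaction test over all 12 libraries; each value is the KO difference minus the control difference on the log2 scale. Many of these genes were named for their control difference, which enters this test, so the share is a description, and the count over all genes fell to between 147 and 165 when any 1 culture was left out. KO stands for the label alone, since Pogz RNA was not lower in those libraries. The difference was more positive in KO for Sema3c by 7.43 (adjusted p = 0.00119), Blnk by 5.13 (0.0451), Fyb2 by 4.76 (0.0101), Id2 by 4.13 (1.06e-04) and Bcl2l15 by 4.03 (0.0264). Sema3c, Fyb2 and Id2 differed mainly in cultures. Their mean CPM in control and KO cultures was 124 and 2.22, 14.6 and 0.748, and 91.6 and 5.13. In control and KO tumors it was 1.36 and 3.44, 0.660 and 0.976, and 37.0 and 36.6. Blnk and Bcl2l15 were lower in KO than in control cultures and higher in KO than in control tumors. Smaller positive values were 1.35 for Tmsb4x (0.0334), 1.08 for Ctsl (0.0204), 1.02 for Hist1h2ac (0.0362), 0.95 for Vegfb (0.0374), 0.93 for Spp1 (0.0141) and 0.72 for Axl (0.0234). More negative values were -4.10 for Iigp1 (0.00281), -3.30 for Ifi44 (0.00853), -2.65 for Aldoc (0.0102), -2.34 for Cldn3 (0.00465), -2.01 for Tgtp2 (0.00485), -1.73 for Fn1 (0.00974), -1.62 for Egfr (0.00249), -1.53 for Klf2 (0.0411) and -1.37 for Nid1 (0.0454). Ifi44 and Cldn3 differed mainly in cultures, with means of 0.930 and 4.95 CPM in control and 8.70 and 31.5 CPM in KO cultures. In tumors they stood at 143 and 8.54 CPM in control and 134 and 10.7 CPM in KO. Spp1 instead differed in tumors (1043 CPM in control and 2067 CPM in KO), with 98.1 and 102 CPM in cultures.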

How the results depend on the processing

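No paired analysis was possible because the tumor numbers share none with the culture numbers. Without 1 library each, 5334 to 6490 genes were higher and 4187 to 5598 lower, and 147 to 1588 depended on the genotype label. DESeq2 gave 953 of the latter against 377. The 2-fold null left 3074 higher and 1251 lower. Centring on epithelial genes left 3067 lower and turned 3 values round: the median of ribosomal proteins to 0.17, Krt18 to 0.13 and Egln1 to 0.06. Thinned to the smallest total, 4394 genes were higher and 3556 lower. The median of all genes moved from 0.07 to 0.43 under centring and to -0.09 without a filter. DESeq2 and other scalings turned no named gene or list median. Without a tumor or culture library, 13 named genes lost their call under at least 1 omission: Ak4, Cldn3, Dll1, Egln1, Erbb2, Erbb3, Gata3, Hist1h1a, Lipe, Ramp2, Rmrp, Rnu11 and Scd1. At tumor depth, a mean under 0.465 CPM lies below the floor of 3 counts per library. Tumor values under it rest on few counts, such as 5 for Adh7 and 2 for Ccl20 over the 3 tumors.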

Other observations

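The genes without culture counts lay partly in runs along the genome, a pattern chosen after the data were seen. Among 13939 protein-coding genes with at least 20 counts in the control cultures or the control tumors, 951 had at most 3 counts over the 3 cultures and at least 20 over the 3 tumors. Of these, 107 formed 20 runs of 4 or more neighbours. A run on chromosome 14 held 6 granzyme genes, the cytotoxic proteases Gzmb to Gzmg. Gzmf was at 1.49, 34.2 and 9.03 CPM in T8447, T8448 and T8451, Gzmd at 7.64, 26.5 and 13.7 CPM and Gzmc at 10.6, 24.5 and 15.8 CPM, whereas Gzmb was even across the tumors. On chromosome 16 a run of stefin genes, cysteine protease inhibitors with near-identical copies, included Stfa2l1, with no culture count and at 1.49, 34.3 and 11.0 CPM in tumors, highest in T8448. Cd86 lies in the same run and was lowest in T8448.

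Other runs held the Ms4a genes on chromosome 19 (Ms4a6d at 74.5, 34.3 and 53.7 CPM), the Gimap genes of lymphocytes on chromosome 6 (Gimap5, with none in cultures, at least 72.4-fold higher) and chemokine receptor genes, among them Ccr1, Ccr2 and Ccr3, on chromosome 9. Ccr2, the receptor that brings monocytes to tissue, was at 124, 18.1 and 102 CPM, lowest in T8448. Homeobox genes of position formed 2 runs, with Hoxb4 at 8.49, 3.00 and 4.38 CPM on chromosome 11 and Hoxc8 at 3.61, 2.64 and 3.06 CPM on chromosome 15. Outside any run, Cdkn2b, a cyclin-dependent kinase inhibitor, had no culture count and 2.33, 1.80 and 1.73 CPM in tumors, at least 11.9-fold higher. A run of Ugt1a genes shares exons and counts as few independent genes.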
